A study of Mus musculus with 12 samples.

Results

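Transcripts of heart receptors for noradrenaline, acetylcholine and adenosine, together with the orphan receptor Gpr22, were followed in hearts of a mouse model of myotonic dystrophy type 1, in which a CTG repeat of DMPK is expanded. The receptor genes considered were Adrb1, Adra1a, Adra1b, Chrm2, Adora1 and Gpr22, 6 in all, and their probes were taken by gene symbol from the platform annotation. Named probes were found for 3 of the 6 genes: 2 for Adra1b, 2 for Chrm2 and 1 for Gpr22, together 5 of the 45281 probes of the array and 3 of its 19057 named genes. In the annotation used here no probe carried the symbol Adrb1, Adra1a or Adora1, and these genes were not analysed here. A probe was tested when its detection p was below 0.01 on every heart of at least 1 group. Of the 5 probes, 4 passed this filter, among 18370 probes tested in all, and the other Adra1b probe did not.

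Total RNA of 12 hearts of the FVB strain was hybridised to Illumina bead arrays, 1 array per heart. EpA960/MCM hearts, from bitransgenic adults of 2 to 4 months, were collected 72 h (n = 3) and 1 week (n = 3) after induction. Their EpA960 transgene yields RNA with expanded CUG repeats (CUGexp) once MCM, a tamoxifen-activated Cre recombinase active in heart muscle, has acted, so the repeat RNA is made in heart muscle and not in the other cells of the heart. Induction was by tamoxifen at 20 mg/kg given intraperitoneally, either 1 time or on 5 days in a row, and the sources used here do not say which schedule belongs to which time. The other groups were wildtype hearts of embryonic day 14 (E14, n = 1), adult wildtype hearts (n = 2) and untreated adult MCM control hearts (n = 3). MCM hearts were labelled untreated, so what tamoxifen does and what CUGexp does cannot be told apart. The array names of the 3 hearts at 1 week carry a letter R that the sources used here do not explain, and whatever it marks cannot be told apart from the time point. Nothing states how the animals of a group were related, so p-values measure only the spread between these hearts.

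Cardiac receptors of this class pass through the membrane several times and act through G proteins. Beta receptors for noradrenaline raise the rate and force of the beat through adenylyl cyclase, and its alpha-1 receptors act through phospholipase C. The muscarinic receptor Chrm2 opposes them: on vagal release of acetylcholine it inhibits adenylyl cyclase and opens the potassium channel built from Kcnj3 and Kcnj5, above all in atria and the pacemaker. Gpr22 has no settled ligand, and its transcript is known for its abundance in heart and brain.

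Promoters of the receptors that differed most between groups are shown because they are the sequence next to which these transcripts start, and they differ in base composition. Each runs from 250 bases before to 50 bases after the start of the gene in the RefSeq table of build GRCm38.p6, 5′ to 3′ on the gene's strand, and capitals mark a match to the letters TATAAA.
Gpr22 promoter, chr12:31713834-31714133, minus strand: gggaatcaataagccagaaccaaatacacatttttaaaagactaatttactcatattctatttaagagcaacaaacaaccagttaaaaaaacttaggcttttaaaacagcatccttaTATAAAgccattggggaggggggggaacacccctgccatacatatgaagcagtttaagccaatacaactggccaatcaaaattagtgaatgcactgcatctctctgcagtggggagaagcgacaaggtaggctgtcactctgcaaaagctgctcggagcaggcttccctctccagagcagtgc
Chrm2 promoter, chr6:36387834-36388133, plus strand: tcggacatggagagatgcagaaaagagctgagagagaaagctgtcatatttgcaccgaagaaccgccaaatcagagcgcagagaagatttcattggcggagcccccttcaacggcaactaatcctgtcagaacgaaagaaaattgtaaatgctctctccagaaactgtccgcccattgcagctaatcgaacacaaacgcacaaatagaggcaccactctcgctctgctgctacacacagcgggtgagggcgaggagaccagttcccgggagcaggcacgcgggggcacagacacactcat

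The Gpr22 window was 43% G and C, against 52.7% for Chrm2 and a median of 52.7% over all 32851 promoter windows of the table. A MEF2 site, a CArG box, the GATA core GATAA, the TATA box TATAAA and the core TGACG of the cyclic AMP response element were searched on both strands. In the Gpr22 window the search found TATAAA alone, at position -133 from the gene start, and the Chrm2 window held none of the 5. The table lists 2 windows for Adra1b, with 71.3% and 42.3% G and C, and none of the 5 motifs was found there either. Over all windows, 13.6% held TATAAA, 25.4% GATAA, 20.8% TGACG, 3.19% a MEF2 site and 1.63% a CArG box, so a match to TATAAA was not rare, and a window without matches says nothing of the factors.

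Arrays detected 14202 to 16774 probes each (median of 41 or 42 beads per probe), and arrays of 1 group correlated at 0.962 to 0.994. The 4 tested receptor probes were read from 24 to 47 beads per array, and their bead-to-bead standard error was 3.3 to 10.6% of the signal. The 1st percentile of the signals, which reflects background, was 54.4 to 59.1 in induced hearts and 63.0 to 76.2 in the other hearts. All 9 tested cardiomyocyte markers were detected on every array, which fits the tissue label heart. In 2 hearts the atrial markers were low: the mean log2 signal of 7 atrial genes was 10.91 in 72 h replicate 3 and 9.82 in MCM replicate 3, against 11.36 to 12.82 in the other 10 hearts. Xist, the RNA that coats an inactive X (probe ILMN_1224091), had a log2 signal of 11.45, 11.60 and 5.01 at 72 h, 4.94 to 4.98 at 1 week, 11.05 at E14, 4.98 and 5.01 in adult wildtype hearts and 10.82, 11.39 and 5.07 in MCM hearts. The sources used here do not give the sex, and hearts with high Xist were therefore unevenly spread over the groups.

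Gpr22 and both Chrm2 probes were detected on all 12 arrays, so each was above background in each of the 5 groups. Adra1b probe ILMN_2606415 was detected in 1 of 3 hearts at 72 h, 0 of 3 at 1 week, 0 of 1 at E14, 2 of 2 adult wildtype hearts and 2 of 3 MCM hearts. The other Adra1b probe, ILMN_2466647, was detected in 0 of 12 hearts, with mean log2 signals between 4.95 and 5.87, and its differences were not read. Levels of different probes cannot be set against each other, and each probe is followed across groups below.

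**Figure D1:**
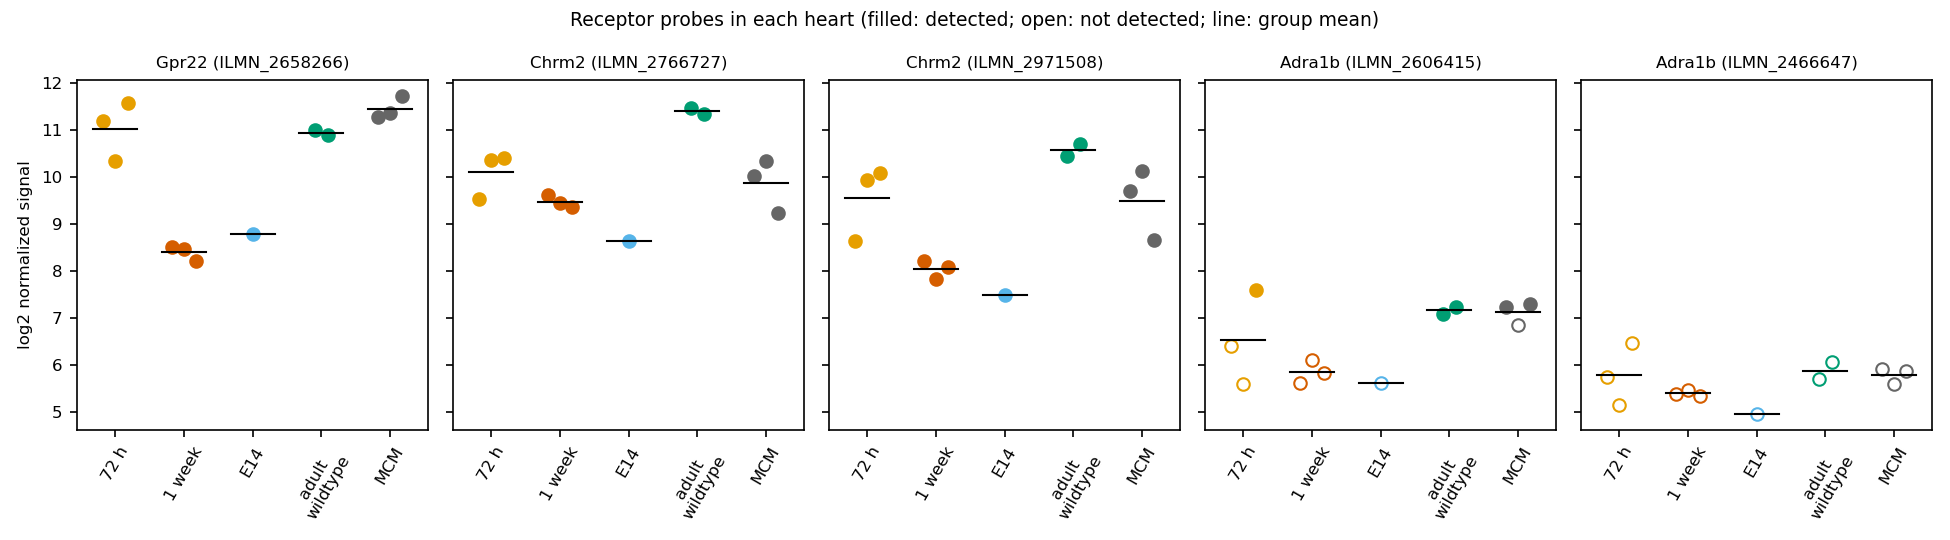
Normalized log2 signal of each receptor probe (vertical axis) in each heart, by group (horizontal axis); filled points were detected, open points were not, and lines are group means. Gpr22 sits between 8.22 and 8.50 in the 3 hearts at 1 week and at 8.79 in the E14 heart, below the 10.34 to 11.73 of all other hearts.

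Gpr22 was lower in hearts at 1 week than in MCM hearts, by 8.40-fold. Its log2 signal was 8.50, 8.46 and 8.22 in the hearts at 1 week (mean 8.39 ± 0.15, SD, n = 3), against 11.29, 11.36 and 11.73 in MCM hearts (11.46 ± 0.24, SD, n = 3). All 3 hearts at 1 week lay far below all 3 MCM hearts. The log2 difference was -3.07 ± 0.24 (SE; 95% interval -3.60 to -2.55; limma, adjusted p = 1.85e-06), and 9 of the 18370 tested probes had a lower one. In bulk hearts, fewer cells of a type and less RNA per cell cannot be told apart. At 72 h the 3 hearts gave 11.19, 10.34 and 11.57 (11.03 ± 0.63, SD), a range that overlapped that of the MCM hearts. The difference of 72 h from MCM was -0.43 ± 0.24 (SE; 95% interval -0.95 to 0.09; adjusted p = 0.666), so a loss of up to 0.95 on the log2 scale lies within the interval. Hearts at 1 week were also below hearts at 72 h, by 6.24-fold (log2 difference -2.64 ± 0.24, SE; adjusted p = 8.26e-06), without overlap.

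The embryonic heart had low Gpr22 as well. Its log2 signal was 8.79, against 11.00 and 10.89 in adult wildtype hearts (10.95 ± 0.08, SD, n = 2). The single E14 heart was assumed to vary like the others, and the difference was -2.15 ± 0.36 on the log2 scale (SE; 4.45-fold lower; adjusted p = 0.000292). Hearts at 1 week stood 5.88-fold below adult wildtype hearts (-2.56 ± 0.27, SE; adjusted p = 2.02e-05). Against the E14 heart, hearts at 1 week differed by -0.40 ± 0.34 (SE; 95% interval -1.14 to 0.34; adjusted p = 0.331), which did not pass the test and leaves room for a difference in either direction. Adult wildtype and MCM hearts differed by -0.52 ± 0.27 (SE; 95% interval -1.10 to 0.07; adjusted p = 0.313). Without 72 h replicate 2, a heart of neither group, the same difference passed (limma, adjusted p = 0.0304). Normalization, filter, spread and adjustment were all recomputed there, and all probes called were 2439 in place of 1267. From high to low, the Gpr22 means ran MCM, 72 h, adult wildtype, E14 and 1 week. Of the neighbours in that order only adult wildtype and E14 differed beyond the test. On the linear scale of the authors' deposited table, the group means were 2340 at 72 h, 418 at 1 week, 524 at E14, 2090 in adult wildtype and 2950 in MCM hearts, which gives the same order.

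Chrm2 was read by a pair of probes, which did not give the same answer for hearts at 1 week. Probe ILMN_2971508 had log2 signals of 8.22, 7.82 and 8.08 in hearts at 1 week (8.04 ± 0.20, SD, n = 3), against 9.71, 10.13 and 8.65 in MCM hearts (9.50 ± 0.76, SD, n = 3). The groups did not overlap, although MCM replicate 3 came close. The signal fell 2.75-fold (log2 difference -1.46 ± 0.38, SE; 95% interval -2.29 to -0.63; limma, adjusted p = 0.00665). Probe ILMN_2766727 had 9.61, 9.44 and 9.36 in hearts at 1 week (9.47 ± 0.13, SD, n = 3), against 10.02, 10.34 and 9.24 in MCM hearts (9.86 ± 0.56, SD, n = 3). Here MCM replicate 3 lay below all hearts at 1 week, and the difference of -0.39 ± 0.26 (SE; 95% interval -0.96 to 0.18; adjusted p = 0.229) did not pass the test. Without MCM replicate 3 it was -0.71 (adjusted p = 0.0244), and with array weights, all hearts kept, it was -0.48 (adjusted p = 0.0406), so this call depends on the hearts and weights used.

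The distance between the Chrm2 probes was compared after it had been seen. Probe ILMN_2766727 minus probe ILMN_2971508 was 1.40, 1.62 and 1.27 on the log2 scale in hearts at 1 week, against 0.31, 0.21 and 0.58 in MCM hearts. The gap was wider in each heart at 1 week than in any MCM heart, by 1.07 on average. A two-sided exact permutation test gave p = 0.1, the smallest that 20 regroupings of 3 against 3 hearts allow, so the test could not reach 0.05. At 72 h the gap was 0.91, 0.42 and 0.33, by mean 0.19 above MCM (exact permutation p = 0.5), and at E14 it was 1.16. In adult wildtype hearts, untreated too, it was 1.03 and 0.64, above all MCM hearts. The sources used here do not place either probe on the transcript.

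At 72 h neither Chrm2 probe differed from MCM by the test. Probe ILMN_2971508 had 8.63, 9.94 and 10.08 at 72 h (9.55 ± 0.79, SD), a difference from MCM of 0.05 ± 0.38 (SE; 95% interval -0.78 to 0.88; adjusted p = 0.980). Probe ILMN_2766727 had 9.54, 10.36 and 10.41 (10.10 ± 0.49, SD), a difference of 0.24 ± 0.26 (SE; 95% interval -0.33 to 0.81; adjusted p = 0.813). For the first probe the hearts of both groups spread by over 1 on the log2 scale. Between 1 week and 72 h, probe ILMN_2971508 fell 2.85-fold (-1.51 ± 0.38, SE; adjusted p = 0.00683), while ILMN_2766727 differed by -0.63 ± 0.26 (SE; adjusted p = 0.0676). Probe ILMN_2766727 passed without 72 h replicate 1 (-0.91, adjusted p = 0.0131) or without MCM replicate 3 (-0.63, adjusted p = 0.0252).

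Adult wildtype hearts had the highest Chrm2 means by both probes. Probe ILMN_2766727 had 11.48 and 11.35 in adult wildtype hearts (11.42 ± 0.09, SD, n = 2), 2.94-fold above MCM hearts (1.55 ± 0.29 on the log2 scale, SE; adjusted p = 0.00692). Both wildtype hearts lay above all MCM hearts. Probe ILMN_2971508 had 10.45 and 10.71 (10.58 ± 0.19, SD), also above all MCM hearts, but the difference of 1.08 ± 0.43 (SE; 95% interval 0.15 to 2.01; adjusted p = 0.169) did not pass. With only 1 adult wildtype heart left, ILMN_2766727 lost its call, at 1.49 (adjusted p = 0.0797) without replicate 1 and 1.62 (adjusted p = 0.0607) without replicate 2. Hearts at 72 h were 2.49-fold below adult wildtype hearts by ILMN_2766727 (-1.31 ± 0.29, SE; adjusted p = 0.0161). That call too needed both wildtype hearts (adjusted p = 0.136 and 0.0942 without replicate 1 and 2). The 1 week means were lower than adult wildtype by 3.86-fold (ILMN_2766727, -1.95 ± 0.29, SE; adjusted p = 0.000237) and 5.82-fold (ILMN_2971508, -2.54 ± 0.43, SE; adjusted p = 0.000487). For both probes the difference of hearts at 1 week was thus larger against adult wildtype than against MCM hearts.

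The embryonic heart had the lowest Chrm2 signal of all hearts by both probes. ILMN_2766727 was at 8.64 and ILMN_2971508 at 7.48 on the log2 scale. Against adult wildtype hearts these were 6.86-fold (-2.78 ± 0.39, SE; adjusted p = 7.68e-05) and 8.54-fold lower (-3.09 ± 0.57, SE; adjusted p = 0.000592). Hearts at 1 week differed from E14 by 0.83 ± 0.37 (ILMN_2766727, SE; adjusted p = 0.0729) and 0.55 ± 0.54 (ILMN_2971508, SE; adjusted p = 0.400), neither past the test (58.0% of all probes were called in that comparison). From high to low, the means of both probes ran adult wildtype, 72 h, MCM, 1 week and E14. Among neighbours, adult wildtype and 72 h differed by the test for ILMN_2766727 only. MCM and 1 week differed for ILMN_2971508 only.

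Since acetylcholine receptors are denser in atria, atrial markers were set beside Chrm2. MCM replicate 3, with the lowest atrial markers, had the lowest Chrm2 of its group by both probes. In 72 h replicate 3, with the next lowest atrial markers, Chrm2 was the highest of its group by both probes. The part of atrial content in the Chrm2 values was not tested. Summed over 7 atrial genes, the linear signal was 36853 to 136378 at 72 h, 90891 to 102683 at 1 week, 118923 at E14, 104741 to 114198 in adult wildtype and 23408 to 144537 in MCM hearts. Of the 8 genes listed only Bmp10 had no tested probe. At 1 week against MCM 0 rose and 2 fell, beside 27.3% and 26.6% of all genes. With both low hearts left out, the 1 week difference from MCM was -1.88 for ILMN_2971508 (adjusted p = 0.000425) and -0.70 for ILMN_2766727 (adjusted p = 0.0134). Both probes were thus called lower in that fit, chosen after the data were seen. It leaves out MCM replicate 3, the MCM heart below all hearts at 1 week by ILMN_2766727. Without that heart alone the difference was -0.71, so the fit is no separate support for a decrease by this probe.

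**Figure D2:**
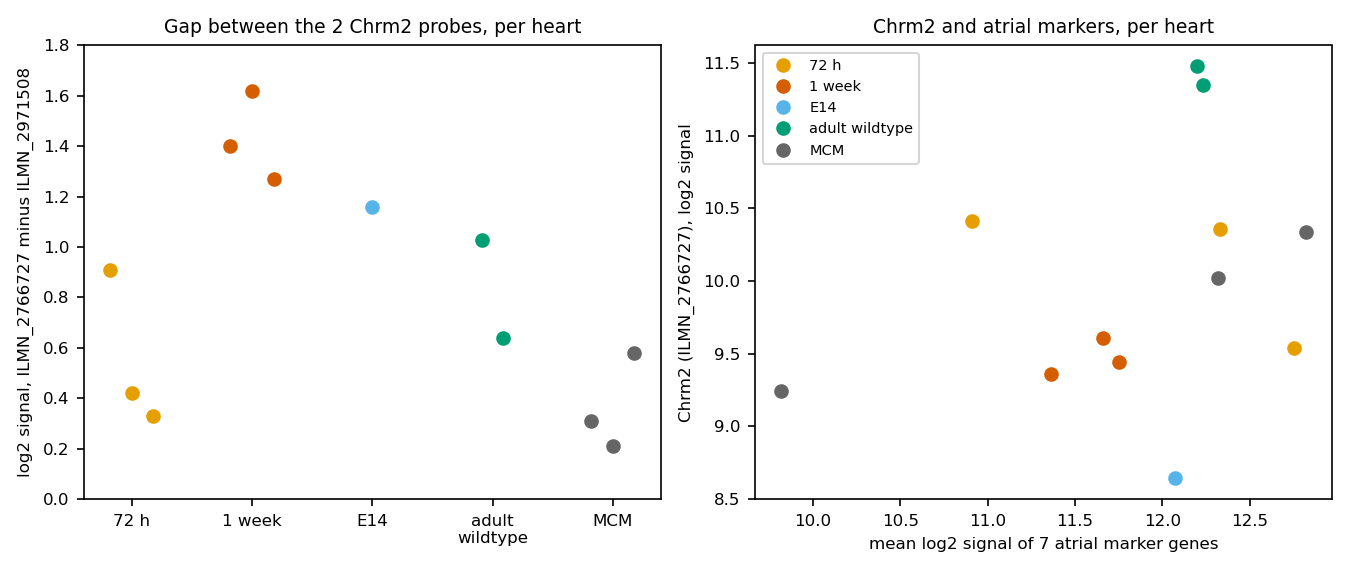
Left, log2 signal of Chrm2 probe ILMN_2766727 minus that of ILMN_2971508 (vertical axis) in each heart, by group; right, log2 signal of ILMN_2766727 (vertical axis) against the mean log2 signal of 7 atrial genes (horizontal axis), 1 point per heart. Hearts at 1 week have gaps of 1.27 to 1.62, above all MCM hearts, and the lowest atrial level, 9.82, belongs to an MCM heart.

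Adra1b, a receptor for noradrenaline that couples to phospholipase C, was near the limit of detection. Probe ILMN_2606415 had log2 signals of 5.62, 6.11 and 5.82 at 1 week (5.85 ± 0.24, SD, n = 3; none detected), against 7.23, 6.85 and 7.29 in MCM hearts (7.12 ± 0.24, SD, n = 3). All hearts at 1 week lay below all MCM hearts. Since no heart at 1 week was above background there is only a bound. The signal was at least 1.34-fold lower at 1 week. This bound sets the MCM mean against the higher of the probe's own value and the lowest detected signal on each array. Bounds were not tested. The adjusted p given with a bound, here and below, is for the difference of the signals as measured. For 1 week against MCM that difference was -1.28 (limma, adjusted p = 0.0122). At 72 h the probe had 6.39, 5.58 and 7.60 (6.53 ± 1.02, SD), the widest spread of any receptor probe in any group, and only the heart at 7.60 was detected. The 72 h difference from MCM was -0.60 ± 0.37 (SE; 95% interval -1.41 to 0.21; adjusted p = 0.681), and that of 1 week from 72 h was -0.68 ± 0.37 (SE; adjusted p = 0.159). The difference between 1 week and 72 h passed without 72 h replicate 2 (-1.15, adjusted p = 0.00281). With all hearts kept it passed with array weights (-0.64, adjusted p = 0.0116) and with Xist as a covariate (-1.36, adjusted p = 0.00662). These differences rest on signals below detection. The bound for 1 week against 72 h was 0.885-fold, which is below 1, so it sets no least decrease.

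Adult wildtype hearts had Adra1b signals of 7.08 and 7.24 (7.16 ± 0.11, SD, n = 2), which differed from MCM hearts by 0.04 ± 0.42 (SE; 95% interval -0.86 to 0.95; adjusted p = 0.972). The probe passed the filter only through the adult wildtype hearts, its highest group, so its comparisons with that group are not independent of the filter. Hearts at 1 week were at least 1.38-fold below adult wildtype hearts (adjusted p = 0.0204 for the signals as measured). That call was lost without adult wildtype replicate 1 (adjusted p = 0.0741) or 2 (0.107) and without 1 week replicate 1 (0.0625) or 3 (0.0518). The E14 heart, at 5.62 and not detected, was at least 1.70-fold below adult wildtype hearts (adjusted p = 0.0322) and at least 1.65-fold below MCM hearts (adjusted p = 0.0261). Without adult wildtype replicate 1 or 2 the adjusted p of E14 against adult wildtype was 0.0683 or 0.0970. Without MCM replicate 1 or 3 that of E14 against MCM was 0.0544 or 0.0557. Hearts at 72 h differed from adult wildtype by -0.64 ± 0.42 (SE; adjusted p = 0.385), and by -1.18 without 72 h replicate 3 (adjusted p = 0.0154). From high to low the Adra1b means ran adult wildtype, MCM, 72 h, 1 week and E14, and no neighbours in that order differed by the test.

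Counted over the 4 tested probes, 0 were called at 72 h against MCM, where 0.229% of all probes were called, and none of the 4 had an unadjusted p below 0.05 in limma. With array weights 2 of the 4 were called lower at 72 h (ILMN_2971508, -0.86, adjusted p = 0.0352; Adra1b, -0.71, adjusted p = 0.0276), where 1844 of all probes were called in place of 42. Set against MCM, hearts at 1 week had 3 of 4 lower, where 27.9% of all probes were called lower. The 3 were Gpr22, Chrm2 by ILMN_2971508 and Adra1b. Set against 72 h, they had 2 of 4 lower (23.7% of all probes), namely Gpr22 and ILMN_2971508. Set against adult wildtype, all 4 were lower (25.2%), with Adra1b among them. E14 against adult wildtype and E14 against MCM each had 4 of 4 lower, beside 26.2% and 28.1% of all probes. Adra1b passed the filter only through adult wildtype hearts, so its place in the counts against that group is not independent of the filter. Adult wildtype against MCM had 1 of 4 higher (3.22%) and 72 h against adult wildtype 1 of 4 lower (4.29%), ILMN_2766727 in both. Comparisons with a group in common share its hearts and are not separate evidence.

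**Figure D3:**
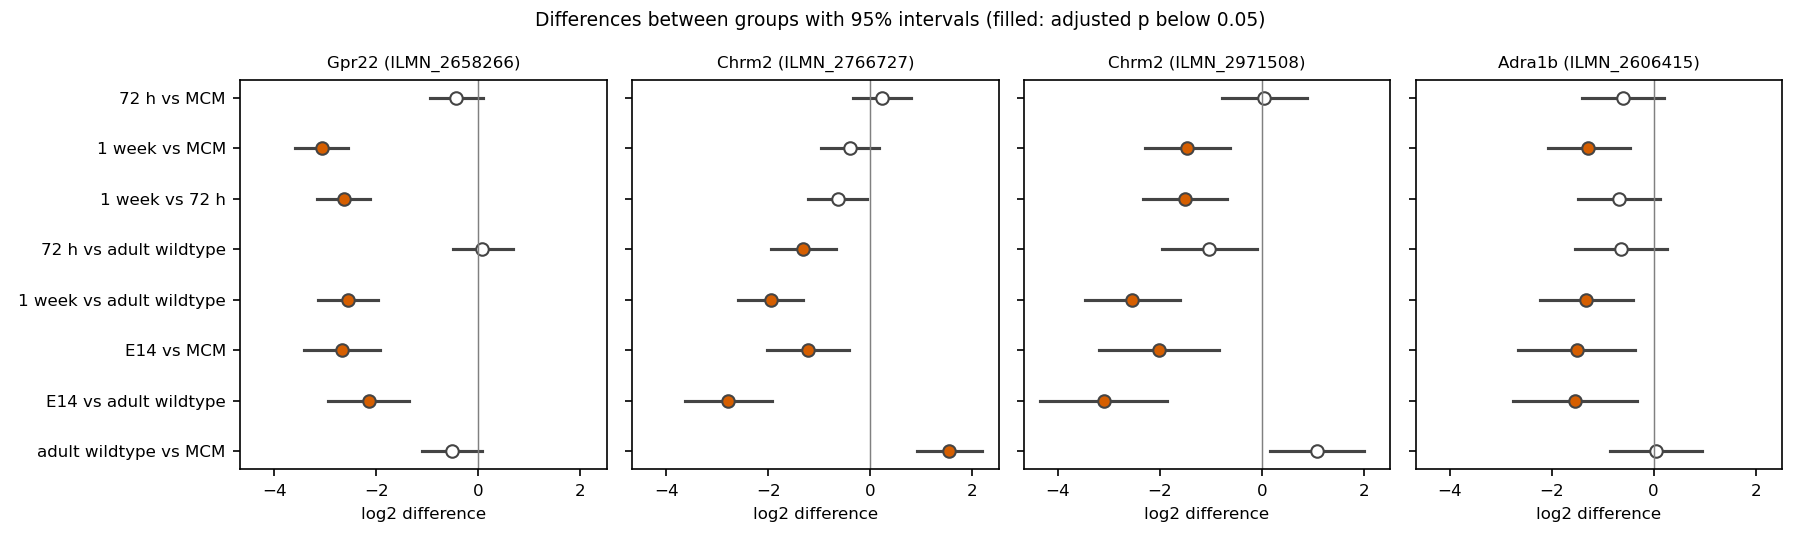
Log2 difference between groups (horizontal axis, first group minus second) with its 95% interval for each tested receptor probe, 8 comparisons down the page; filled points have an adjusted p below 0.05. At 72 h against MCM all 4 intervals include 0, while Gpr22 at 1 week against MCM spans -3.60 to -2.55.

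Genes whose log2 signal followed Gpr22 most closely over the 12 hearts were 5730455P16Rik, Slc25a3, the mitochondrial phosphate carrier, and Pdp2, a phosphatase that activates pyruvate dehydrogenase (Pearson r = 0.993 for each, among 12861 named probes searched). Their log2 differences at 1 week against MCM were -1.38, -1.27 and -2.50, all smaller in size than that of Gpr22. For Chrm2 probe ILMN_2766727 they were Rftn1 (r = 0.918), Pabpc4, a poly(A)-binding protein (r = 0.912), and Osbpl3 (r = 0.904). For Adra1b they were Vwa8 (r = 0.950), Lgals4 (r = 0.947) and Qk, an RNA-binding protein (r = 0.944). The 12 points share group membership, so these coefficients describe the pattern over the 5 groups.

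Gpr22 was also set among the genes with a symbol of the form Gpr and a number, a set taken after its values were seen. Of 58 such genes with a named probe 18 were tested. At 1 week against MCM 5 of the 18 rose and 5 fell, where 27.3% and 26.6% of all 10169 genes at 1 probe each did, and the median was 0.04 on the log2 scale. Gpr22 was the lowest of them at -3.07, followed by Gpr158 at -1.38, while Gpr176 was the highest at 2.82. At E14 against adult wildtype 4 rose and 5 fell (30.4% and 26.9% of all genes), and the lowest was Gpr158, at -4.03.

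Other receptors for the same transmitters gave no tested probe: of 13 genes listed, 6 (Adra2c, Chrm1, Chrm3, Chrm4, Chrm5 and Adora3) did not pass the filter and 7 had no named probe. Over the signalling lists 145 genes were listed, 131 had a named probe and 91 were tested. At 72 h against MCM none of the 91 was called (0.266% of all genes were). In hearts at 1 week 24 rose and 35 fell, against MCM, with a median of -0.19, beside a median of 0.00 over all genes. Of all genes 27.3% rose and 26.6% fell in that comparison. Each gene is given by its brightest tested probe; 39 of the 91 had others, at least 1 of which gave a different call for 18 genes, the opposite call for 2 (Gnb4 and Akap12). At E14 against adult wildtype 19 rose and 38 fell, with a median of -0.37, beside 0.06 over all genes. Of all genes 30.4% rose and 26.9% fell there. Among the listed genes Pde5a and Prkd1, both higher, passed the filter only through the E14 heart. Dbh and Rgs2, both lower, passed it only through adult wildtype hearts, so these calls are not independent of the filter.

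Receptors for other signals went both ways at 1 week against MCM. Of 9 tested 5 rose and 3 fell (27.3% and 26.6% of all genes), with a median of 0.45. P2ry1, a receptor for nucleotides, averaged 8.60 ± 0.33 at 1 week and 10.46 ± 0.15 in MCM hearts (log2, SD, n = 3 each), a 3.64-fold decrease (adjusted p = 0.000124). Agtr1a, the main angiotensin II receptor, averaged 10.19 ± 0.10 at 1 week and 11.32 ± 0.02 in MCM hearts (adjusted p = 0.000242). Lpar1, a lysophosphatidic acid receptor, rose 2.17-fold (adjusted p = 0.000151), and Ramp1, a partner of the calcitonin receptor-like receptor, rose 2.02-fold (adjusted p = 0.000845). Of 17 G protein subunits 5 rose and 3 fell (27.3% and 26.6% of all genes), with a median of -0.02. Gnas, which encodes the stimulatory alpha subunit, fell 1.43-fold (adjusted p = 0.00102) and Gnb5 1.77-fold (adjusted p = 8.86e-05). Gng12 and Gnb1 rose 2.05-fold and 1.72-fold (adjusted p = 0.000149 and 0.000586).

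Downstream of the stimulatory receptors, 4 of 19 genes of adenylyl cyclase and protein kinase A rose at 1 week against MCM and 9 fell. Their median was -0.30, and of all genes 27.3% rose and 26.6% fell. Prkar2b, a regulatory subunit of protein kinase A, averaged 8.65 ± 0.20 at 1 week and 7.25 ± 0.20 in MCM hearts (log2, SD, n = 3 each), a 2.65-fold increase (adjusted p = 4.26e-05). Adcy4, an adenylyl cyclase, fell 1.51-fold (adjusted p = 0.000277) and the anchoring protein Akap1 2.15-fold (adjusted p = 0.000266). Akap12, another anchoring protein, rose 1.78-fold by its brightest probe (adjusted p = 0.000336), and its other tested probe was not detected in any heart of either group. Of 6 phosphodiesterases, which break down cyclic nucleotides, Pde4b rose 1.67-fold (adjusted p = 0.000388) and 5 were not called by their brightest probe. Second probes of Pde4a, Pde4d and Pde1c, each detected in 0 of 3 hearts at 1 week and 3 of 3 MCM hearts, were lower (adjusted p = 5.33e-06, 0.000121 and 0.0285). The brightest probes of these genes differed by -0.27, -0.44 and -0.29 on the log2 scale, and the remaining probe of Pde4d by 0.55 (adjusted p = 0.0759). Of 9 genes of phospholipase C and protein kinase C, the branch that Adra1b feeds, Prkcd rose 1.83-fold (adjusted p = 0.00129), Prkca fell 1.23-fold (adjusted p = 0.0180) and 7 were not called by their brightest probe.

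Among regulators of receptor signalling, of 12 receptor kinases, arrestins and RGS proteins 5 rose and 6 fell at 1 week against MCM. Their median was -0.12, and of all genes 27.3% rose and 26.6% fell. Grk5, a kinase that phosphorylates active receptors, averaged 9.61 ± 0.14 at 1 week and 8.49 ± 0.12 in MCM hearts (log2, SD, n = 3 each), a 2.17-fold increase (adjusted p = 0.00166). RGS proteins speed the switching off of G proteins. Rgs10 rose 2.01-fold (adjusted p = 0.000552), Rgs16, not detected in MCM hearts, was at least 1.23-fold higher (adjusted p = 0.000564), and Rgs2, not detected at 1 week and detected in 2 of 3 MCM hearts, was at least 1.30-fold lower (adjusted p = 0.000404). Of 6 genes that make, clear or break down the transmitters 2 rose and 3 fell. Maob, which oxidises monoamines, fell 2.27-fold (adjusted p = 0.000901). Adk, adenosine kinase, fell 1.60-fold (adjusted p = 0.000507), while Nt5e, which makes adenosine outside cells, rose 1.60-fold (adjusted p = 0.00218). Dbh, which makes noradrenaline, was detected in 0 of 3 hearts at 1 week and 2 of 3 MCM hearts and was at least 1.12-fold lower (adjusted p = 0.000806). The adjusted p-values beside the bounds of Rgs16, Rgs2 and Dbh are for the signals as measured, and the bounds were not tested.

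Of 13 effectors in the membrane and at the sarcoplasmic reticulum 1 rose and 10 fell at 1 week against MCM, with a median of -0.67. Of all genes 27.3% rose and 26.6% fell. The list also holds the sarcomere proteins Tnni3 and Mybpc3. Ryr2, Pln and Tnni3 are counted again among the cardiomyocyte markers below, and Kcnj3 is among the atrial genes above, so these counts share probes. Pln, the protein kinase A target that restrains the calcium pump, averaged 12.79 ± 0.25 at 1 week and 14.29 ± 0.14 in MCM hearts (log2, SD, n = 3 each), a 2.83-fold decrease (adjusted p = 3.10e-05). Cacnb2, a calcium channel subunit, fell 2.73-fold (adjusted p = 1.68e-05) and Mybpc3, a thick filament protein, 2.09-fold (adjusted p = 5.53e-05). Cacna1c, the pore of the same channel, was not detected at 1 week and was at least 1.50-fold lower. That bound was not tested, and the difference of the signals as measured was called (limma, adjusted p = 0.000457). Kcnj3 and Kcnj5, the potassium channel that Chrm2 opens, were named after their values were seen. Kcnj3 averaged 6.95 ± 0.25 at 1 week, with 2 of 3 hearts detected, and 8.06 ± 0.34 in MCM hearts (adjusted p = 0.00323). Kcnj5 averaged 6.99 ± 0.21 at 1 week and 7.66 ± 0.07 in MCM hearts (log2, SD, n = 3 each; adjusted p = 0.0101).

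**Figure D4:**
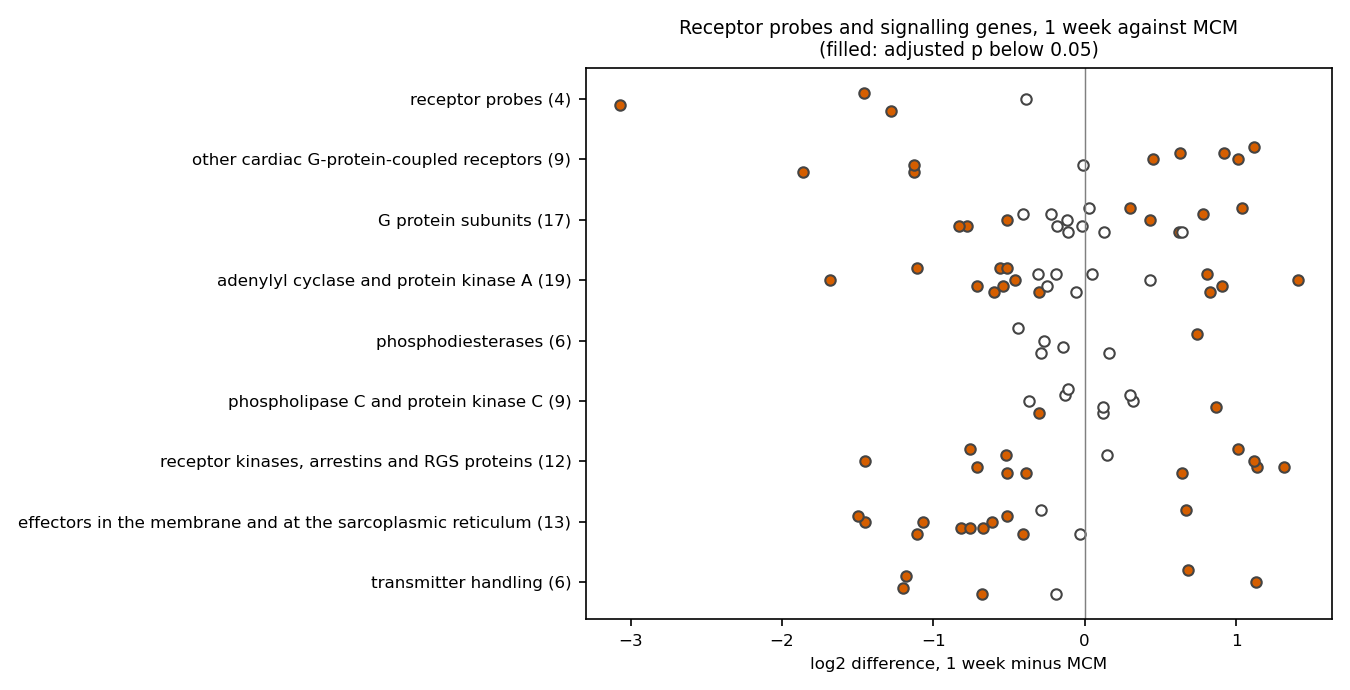
Log2 difference at 1 week minus MCM (horizontal axis) of the 4 receptor probes and of each tested gene of the signalling lists, with the number tested in brackets; filled points have an adjusted p below 0.05. Of the 13 effectors 10 are called lower (26.6% of all genes are), and Gpr22, at -3.07, is the leftmost point.

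At E14 against adult wildtype 11 of 13 effectors fell and 1 rose, with a median of -1.13. Of all genes 26.9% fell and 30.4% rose there. Pln was 4.49-fold lower in the E14 heart (adjusted p = 2.35e-05). Of 6 phosphodiesterases 4 were lower and 1 higher, and of 6 genes of transmitter handling 5 were lower and 1 higher. The higher phosphodiesterase, Pde5a, was detected in the E14 heart alone and passed the filter only through it. Dbh, among the lower transmitter genes, passed only through adult wildtype hearts. Neither call is independent of the filter. Maob was 8.90-fold lower (adjusted p = 7.89e-06). Of 17 G protein subunits 6 were higher and 1 lower, beside 30.4% and 26.9% of all genes.

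Markers of the cell types of the heart differed between the same groups. Beside the counts below, 27.3% of all genes rose and 26.6% fell at 1 week against MCM. At 1 week against MCM 0 of 9 cardiomyocyte markers rose and 6 fell, with a median of -0.76, and their summed linear signal was 257756 to 260380 at 1 week, against 352986 to 357260 in MCM hearts. The sum was 329039 to 354042 at 72 h, 160591 at E14 and 333709 to 339844 in adult wildtype hearts. By the brightest probe of each gene the cardiomyocyte markers went down to -1.50 for Pln, beside -3.07 for Gpr22. Some other tested probes of Ttn, the giant spring protein of the sarcomere, and of Ryr2, the calcium release channel, lay lower, down to -2.88 for Ttn (probe detected in 1 of 3 hearts at 1 week), and among those detected in every heart of both groups down to -2.79 for Ttn and -1.82 for Ryr2. The 3 markers not called, Actc1, Mb and Myl2, averaged 15.86, 15.80 and 15.79 in MCM hearts, near the highest signal of any probe, 16.07. Other tested probes of Actc1 (-0.49; limma, adjusted p = 0.00345) and Mb (-0.44; adjusted p = 0.00570) were called lower. Another Ttn probe, detected in no heart of either group, was not called (-0.12). All 7 tested macrophage and leukocyte markers rose at 1 week, with a median of 2.18 and sums of 27227 to 31827, against 4201 to 4755 in MCM hearts. Among them Fcer1g was detected at 1 week alone and passed the filter only through that group. At 72 h the sum was 14139 in replicate 2, the heart with the lowest Gpr22 and Adra1b of its group, and 4131 and 5258 in the others. Ptprc and Itgam, defining markers of leukocytes, did not pass the filter. Fibroblast markers rose in 4 of 8 cases and fell in none at 1 week. All 3 tested neuron and glia markers fell, with sums of 321 to 387 at 1 week, against 593 to 615 in MCM hearts. Th, Prph and S100b did not pass the filter. Dbh, also counted among the transmitter genes, was detected in 0 of 3 hearts at 1 week and passed the filter only through adult wildtype hearts. Sox10 was detected in 2 of 3 hearts at 1 week, so the sums include signal below detection. Of 8 endothelial markers 2 rose and 3 fell, of 7 smooth muscle and pericyte markers 1 rose and 2 fell, and all 3 erythroid markers rose. The 3 erythroid markers were also higher in adult wildtype than in MCM hearts, with a median of 1.46, where 3.22% of all probes were called higher. The part of these cells in the receptor differences was not tested.

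Xist differed with the groups as well, since all 3 hearts at 1 week and MCM replicate 3 had low Xist while the other MCM hearts had high Xist. With Xist as a covariate Gpr22 at 1 week differed from MCM by -3.48 (adjusted p = 6.27e-07), Chrm2 probe ILMN_2971508 by -1.31 (adjusted p = 0.0333) and Adra1b by -1.92 (adjusted p = 0.000511). Within groups Xist differed widely only at 72 h and in MCM hearts. In both, the low-Xist heart was replicate 3, the heart also low in atrial markers. The covariate thus cannot be told apart from atrial content, and it is no separate check from leaving out those hearts. MCM replicate 3, the low-Xist MCM heart, had 11.73 for Gpr22 and 7.29 for Adra1b, the highest of its group for both, and 9.24 and 8.65 for the Chrm2 probes, the lowest of its group for both. The E14 call of Adra1b against adult wildtype did not hold with this covariate (-0.60, adjusted p = 0.336).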

How the data were processed

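Per the file headers, the authors' array files hold for each probe a mean bead signal, a linear, unnormalized intensity, with its bead spread and bead number, and a detection score, a fraction between 0 and 1. The authors' deposited value table holds normalized intensities. Scanner software and probe positions are not given in the sources used here. Recomputing the authors' deposited quantile mapping (100 quantiles) linked 100% of probes to that table, with a largest difference of 5.0e-05 (tolerance 0.001). Of the probes, 34885 had 1 symbol, 18 several and 10378 none; symbols were updated through RefSeq (78 could not be).

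Detection p was 1 minus the score. Signals were background-corrected (nec, offset 16), quantile-normalized and log2-transformed (limma 3.58.1, R 4.3.3). Probes detected (p below 0.01) on every array of 1 group were kept. A single limma fit over the 12 arrays (7 residual degrees of freedom, eBayes with trend) gave p-values adjusted by Benjamini-Hochberg over all 18370 probes, called below 0.05. For lists each gene had its brightest kept probe (10169 genes). The number of arrays limits precision. Receptors named were those of the rule; from each list up to 4 called genes with the smallest adjusted p at 1 week against MCM were named. Members and lists were chosen with earlier results of these data known. The fit was tested on simulated data, but no outcome is given here and no result rests on it. Alternatives changed background correction, normalization, filter, probes per gene, array weights, variance prior and the hearts used; leaving out 2 hearts and the Xist covariate were chosen after seeing the data.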

Additional observations from a re-analysis of the deposited data

Results flagged for a closer look

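The change against MCM hearts differed between the times for 2 receptor probes, by limma's comparison of 1 week with 72 h, in which the shared MCM hearts cancel. For Gpr22 the difference between the changes was -2.64 on the log2 scale (adjusted p = 8.26e-06; below all hearts at 72 h in 3 of 3 hearts at 1 week). For Chrm2 probe ILMN_2971508 it was -1.51 (adjusted p = 0.00683; also in 3 of 3 hearts). Over all probes 23.7% were lower in this comparison.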

How the results depend on the processing

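Each value was recomputed under up to 25 alternatives, 11 of which left out 1 heart. Of 768 values of single probes, 722 kept their direction and side of the threshold, 17 gained a call, 13 lost one and 16 changed sign, all of them differences that were not called in the reported fit. At 1 week against MCM, Gpr22 (-3.48 to -2.81), Chrm2 probe ILMN_2971508 (-1.88 to -1.14) and Adra1b (-1.92 to -0.67) were called under every alternative run (25, 24 and 24). The other Chrm2 probe, ILMN_2766727 (-0.71 to -0.16), was called under 3 of 25. Receptor probes called were 2 in place of 0 at 72 h against MCM, 2 in place of 1 in adult wildtype against MCM and 3 in place of 1 at 72 h against adult wildtype with array weights. They were 3 at 72 h against adult wildtype without both hearts low in atrial markers, 2 in adult wildtype against MCM with the Xist covariate, and 1 in place of 2 at 1 week against 72 h with 1 probe per gene, where 1 Chrm2 probe is left out by construction. Leaving out 1 heart gave 0 to 2 in adult wildtype against MCM and 0 to 2 at 72 h against adult wildtype.

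Signs changed as follows, each in a difference not called in the reported fit. Chrm2 at 72 h against MCM became -0.33 (ILMN_2766727) and -0.86 (ILMN_2971508, adjusted p = 0.0352) with array weights, -0.22 and -0.63 without both hearts low in atrial markers, and -0.07 and -0.37 without MCM replicate 3. ILMN_2971508 also became -0.14 and -0.21 without 72 h replicates 2 and 3. Leaving out 1 heart gave -0.07 to 0.52 for ILMN_2766727, -0.37 to 0.51 for ILMN_2971508 and, for Gpr22 at 72 h against adult wildtype, -0.18 to 0.43. Gpr22 at 72 h against adult wildtype became -0.18 without 72 h replicate 3 and also without both hearts low in atrial markers. Adra1b in adult wildtype against MCM became -0.01 with array weights, -0.60 with the Xist covariate, -0.04 without adult wildtype replicate 2 and -0.10 without MCM replicate 2, and at 72 h against adult wildtype 0.04 with the Xist covariate. The cause was not tested.

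In a check of pairing, same-numbered hearts correlated at 0.04, 0.10 and 0.27 (72 h and MCM) and 0.06, -0.05 and -0.02 (1 week and MCM). For 1 week and 72 h the values were 0.05, 0.13 and 0.04. These are not correlations of whole array signals, which were 0.962 to 0.994 within groups. No differently numbered hearts were set beside them, so the check does not decide whether replicate numbers pair the hearts. With the replicate block 3 receptor probes were called at 1 week against MCM, as without it, with Gpr22 at -3.11, and all probes called were 9145 in place of 9693. Gpr22 at 72 h against adult wildtype became -0.02 with the block.

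All probes called at 72 h against MCM were 42, against 14 with probes detected on all arrays, 27 with 1 probe per gene, 1844 with array weights and 106 without 72 h replicate 3. In adult wildtype against MCM the 1267 became 471 to 2439 without 1 heart, 582 with 1 probe per gene and 3468 with array weights. At 72 h against adult wildtype the 1593 became 591 to 2363 without 1 heart, 766 with 1 probe per gene and 5668 with array weights. Adra1b lies near background, which limits what its values can show.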
